A study of Mus musculus with 12 samples.

Results

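The 8 genes described here encode receptors that add a second signal to the T cell receptor: Icos, Cd28, Ctla4 and Pdcd1 of the immunoglobulin superfamily, and Cd27, Tnfrsf18, Tnfrsf9 and Tnfrsf4 of the tumour necrosis factor receptor family. They were taken by symbol from a deposited expression table of 24781 genes, in which each of the 8 had 1 row. The RNA came from iNKT (invariant natural killer T) cells, which recognise lipids held by CD1d, sorted from organs of mice aged 6 weeks. The 4 groups were lung CD244-positive, lung CD244-negative, thymus CD244-positive and thymus CD244-negative cells, with 3 libraries each and 100 cells in every library. All cells were gated as positive for TCRbeta, NK1.1, the CD1d tetramer and CXCR6, and CD244, a receptor of the SLAM family, split them into a subset the labels name C2 (positive) and a subset they name C1 (negative). Strain and sex are not given in the labels. Replicates are described there as separate library preparations with no animal named. The p-values therefore rest on the spread between these libraries, which may be technical and which the model largely pooled over genes.

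A T cell that meets its antigen needs a second signal to divide and to secrete cytokines. CD28 gives it in cells that have not yet met antigen, and ICOS, a close relative that appears after activation, sustains helper functions and cytokine output when it meets ICOS ligand on antigen-presenting cells. CTLA-4 and PD-1 belong to the same family and restrain the response, while CD27, GITR (Tnfrsf18), 4-1BB (Tnfrsf9) and OX40 (Tnfrsf4) signal through TRAF proteins to NF-kappaB and survival genes. In iNKT cells of the mouse, ICOS is a surface marker often used to tell subsets apart, and iNKT cells from mice without ICOS have been described as impaired in survival and cytokine release.

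In mm10 (GRCm38; positions from the GENCODE M21 annotation) Icos lies on the + strand of chromosome 1 from 60977927 to 61000320. It shares this strand with Ctla4 (60887000 to 60915832) and Cd28 (60716800 to 60773359). The gap from Cd28 to Ctla4 is 113640 bases and the gap from Ctla4 to Icos 62094 bases. Pdcd1 lies farther along chromosome 1, on the - strand (94038305 to 94052553). Tnfrsf4 (156013843 to 156016612) and Tnfrsf18 (156026164 to 156028895) are neighbours on the + strand of chromosome 4 with 9551 bases between them, and Tnfrsf9 (150914562 to 150946102) lies on the same strand. Cd27 is on the - strand of chromosome 6 (125232622 to 125237010). Cd27 overlaps Vamp1, Tnfrsf9 overlaps Camta1 and Tnfrsf18 overlaps Gm16008 on the opposite strand, and whether the counting used strand is not given in the sources used here, so reads of these pairs may not have been told apart. On their own strand Icos overlaps Gm37039, Ctla4 overlaps Rpl18-ps1 and Cd27 overlaps Mir8113, where strand would not separate the reads.

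ICOS, CD28 and CTLA-4 share a short motif in their cytoplasmic tails, a tyrosine and a methionine with any residue pair between them, which binds phosphoinositide 3-kinase. Its codons are shown because genes of subunits of that kinase (Pik3r1, Pik3cd) are among those described further on. Each stretch is 60 bases of coding exon from the GENCODE M21 transcripts in mm10, 5′ to 3′ on the + strand, with the 12 bases of the motif in capitals. The Icos stretch is at chr1:60995530-60995589, the Cd28 stretch at chr1:60769663-60769722 and the Ctla4 stretch at chr1:60914616-60914675.
Icos: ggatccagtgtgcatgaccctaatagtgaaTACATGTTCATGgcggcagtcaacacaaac
Cd28: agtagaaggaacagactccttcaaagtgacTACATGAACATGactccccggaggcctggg
Ctla4: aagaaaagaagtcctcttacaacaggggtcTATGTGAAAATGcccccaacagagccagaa
Searched by the same rule in the last 60 codons of the longest coding sequence of each of 21523 genes, the motif was present in 3.55% of them, and it was not found in that window of Pdcd1.

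Every nonzero value of the 8 genes (68 of 68) was a whole number of molecules times the constant of its library, so values are given in the deposited units and as molecules. Lung libraries held 42520 to 51436 molecules in all from CD244-positive and 29696 to 32196 from CD244-negative cells, and thymus libraries 56615 to 71789 from CD244-positive and 60120 to 67478 from CD244-negative cells. The authors' units summed to 19342.9 in each lung library and 26890.5 in each thymus library, which sets tissue levels apart by a factor of 1.39 before any gene is read. Cd244 itself had 2 molecules in lung CD244-positive and 0 in lung CD244-negative libraries. In thymus it had 13 molecules in the CD244-positive group and 0 in the other. The ratio of these shares was 4.39 with the 0 set to a floor of 3 molecules per group. The exact interval for 13 against 0 started at 3.09 (counting error only). All 7 T cell receptor complex genes matched of 10 listed were detected in every group. Regulatory T cells are another population rich in these receptors. Of 6 genes listed for them, Foxp3, which defines them, was at 0 in all 12 libraries, while Ikzf2 had 12 molecules in lung CD244-positive, 9 in lung CD244-negative, 21 in CD244-positive thymus and 31 in CD244-negative thymus libraries, and the list summed to 0.583 to 2.22 per 10000 in any library.

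One feature of the lung CD244-positive libraries touches every comparison that uses them. All 12 myeloid markers listed (Apoe, C1qa, Mrc1, Lyz2 and others) had molecules there, and they summed to 57.2, 120 and 95.3 per 10000 molecules in libraries 1, 2 and 3, against 0 to 0.337 in lung CD244-negative libraries, where 11 of 12 were at 0. The 8 MHC class II and B cell markers summed to 48.9, 71.1 and 126 per 10000 in lung CD244-positive libraries against 0.332 to 0.621 in lung CD244-negative ones, while Ms4a1, which marks B cells, had 1 molecule in lung CD244-positive and 0 in lung CD244-negative libraries. Per 10000 molecules the T cell receptor complex genes summed to 10.3 to 17.6 in lung CD244-positive libraries, 21.4 to 25.1 in lung CD244-negative ones, 21.4 to 23.4 in thymus CD244-positive ones and 26.2 to 28.0 in thymus CD244-negative ones. In RNA pooled from 100 cells, fewer cells of a type and less RNA per cell cannot be told apart. The part of these transcripts in the receptor results was not tested, and Icos is also given per T cell receptor complex molecule.

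Icos had the most molecules of the 8 (241 over the 12 libraries), and its level separated the CD244 subsets in both organs. In lung, CD244-positive libraries 1, 2 and 3 held 18, 7 and 11 Icos molecules (7.13, 3.18 and 4.14 units), against 41, 40 and 36 molecules in CD244-negative libraries (26.7, 25.7 and 21.6 units). The groups did not overlap, as for 21.4% of all tested genes, and the highest CD244-positive library, library 1, was also the one with the fewest myeloid transcripts. Means were 4.82 ± 2.06 units in lung CD244-positive and 24.7 ± 2.68 units in lung CD244-negative cells (SD, n = 3 each). Icos fell in lung CD244-positive cells by a log2 fold change of -2.19 ± 0.28 (SE, interval -2.75 to -1.63, limma adjusted p = 1.94e-09), 1 of 5 tested receptors called against 8.43% of all tested genes, or 2.82% in the lower direction. As a share of all molecules the ratio was 0.198 (95% interval 0.133 to 0.290, counting error only). Fold changes here are on the log2(value + 1) scale, which understates the change of genes with low values.

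The lung difference in Icos kept its direction and its call in all 25 other settings, with log2 fold changes of -2.46 to -1.42. The smallest was the one scaled to T cell receptor complex genes (-1.42, limma adjusted p = 0.000632). With library 1, the CD244-positive library lowest in myeloid transcripts, as the only one of its group, it was -1.65 (limma adjusted p = 0.00222), on the assumption that this library varies like the other groups. Counted per 100 T cell receptor complex molecules, Icos had 20.9, 15.9 and 20.4 molecules in lung CD244-positive and 56.9, 52.9 and 52.2 in lung CD244-negative libraries. These did not overlap, and the share of all genes apart on this scale was not computed. Scaling to T cell receptor complex genes called 24.8% of all genes it tested in lung.

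In thymus the same comparison went the same way at lower levels. CD244-positive libraries held 10, 8 and 5 Icos molecules (3.75, 3.39 and 2.37 units), against 15, 30 and 20 in CD244-negative libraries (5.98, 12.1 and 8.95 units). Every CD244-positive library lay below every CD244-negative one (groups were apart for 11.9% of all tested genes), with means of 3.17 ± 0.712 units in CD244-positive and 9.0 ± 3.04 units in CD244-negative cells (SD, n = 3 each). Icos fell in thymus CD244-positive cells by a log2 fold change of -1.23 ± 0.28 (SE, interval -1.79 to -0.67, limma adjusted p = 0.0141), the 1 receptor called of 5 tested, against 0.409% of all tested genes, or 0.0779% in the lower direction. The share of molecules had a ratio of 0.359 (95% interval 0.213 to 0.585). Myeloid markers were at 0 to 0.177 per 10000 in thymus CD244-positive and at 0 in thymus CD244-negative libraries.

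Markers of the NKT2 subset, iNKT cells that make type 2 cytokines, were lower in the same groups as Icos. The 8 listed genes summed to 2.35 to 3.48 per 10000 in lung CD244-positive libraries, with 6 of 8 detected, and to 9.62 to 13.8 in lung CD244-negative libraries, with 7 of 8 detected. In thymus they summed to 4.59 to 6.15 in CD244-positive libraries, with 6 of 8 detected, and to 9.81 to 11.5 in CD244-negative libraries, with 7 of 8 detected. The groups did not overlap in either organ. Among single tested genes in deposited units, 21.4% in lung and 11.9% in thymus were apart in this way. Il4, whose cytokine defines NKT2 cells, had 0 molecules in the CD244-positive and 1 in the CD244-negative lung libraries. In thymus its counts were 3 in CD244-positive and 10 in CD244-negative libraries. The fall in lung was not particular to NKT2 markers. Over the 6 markers listed for NKT1, another iNKT subset, CD244-positive lung libraries ranged from 11.5 to 16.5 per 10000. The CD244-negative ones ranged from 20.9 to 25.8. In thymus the NKT1 ranges overlapped (27.1 to 32.4 and 26.1 to 29.2, in the same order). T cell receptor complex genes, given above, were lower in CD244-positive cells without overlap in both organs. All cells had been gated as NK1.1-positive. The part of the NKT2 markers in the Icos result was not tested.

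The thymus call rested on few molecules and was lost in several settings, always with the sign kept. It did not pass without CD244-positive library 3 (limma adjusted p = 0.188), without CD244-negative library 2 (0.336) or without CD244-negative library 3 (0.0786). It was also not past the threshold with edgeR on 9 libraries (log2 fold change -1.32, adjusted p = 0.182), which called 1.04% of 1154 genes, with scaling to T cell receptor complex genes (-0.97, limma adjusted p = 0.672) or with libraries thinned to 1 depth (-1.05, limma adjusted p = 0.278). Per 100 T cell receptor complex molecules, thymus CD244-positive libraries had 5.95, 5.65 and 4.13 Icos molecules and thymus CD244-negative libraries 7.94, 17.1 and 12.6.

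**Figure D1:**
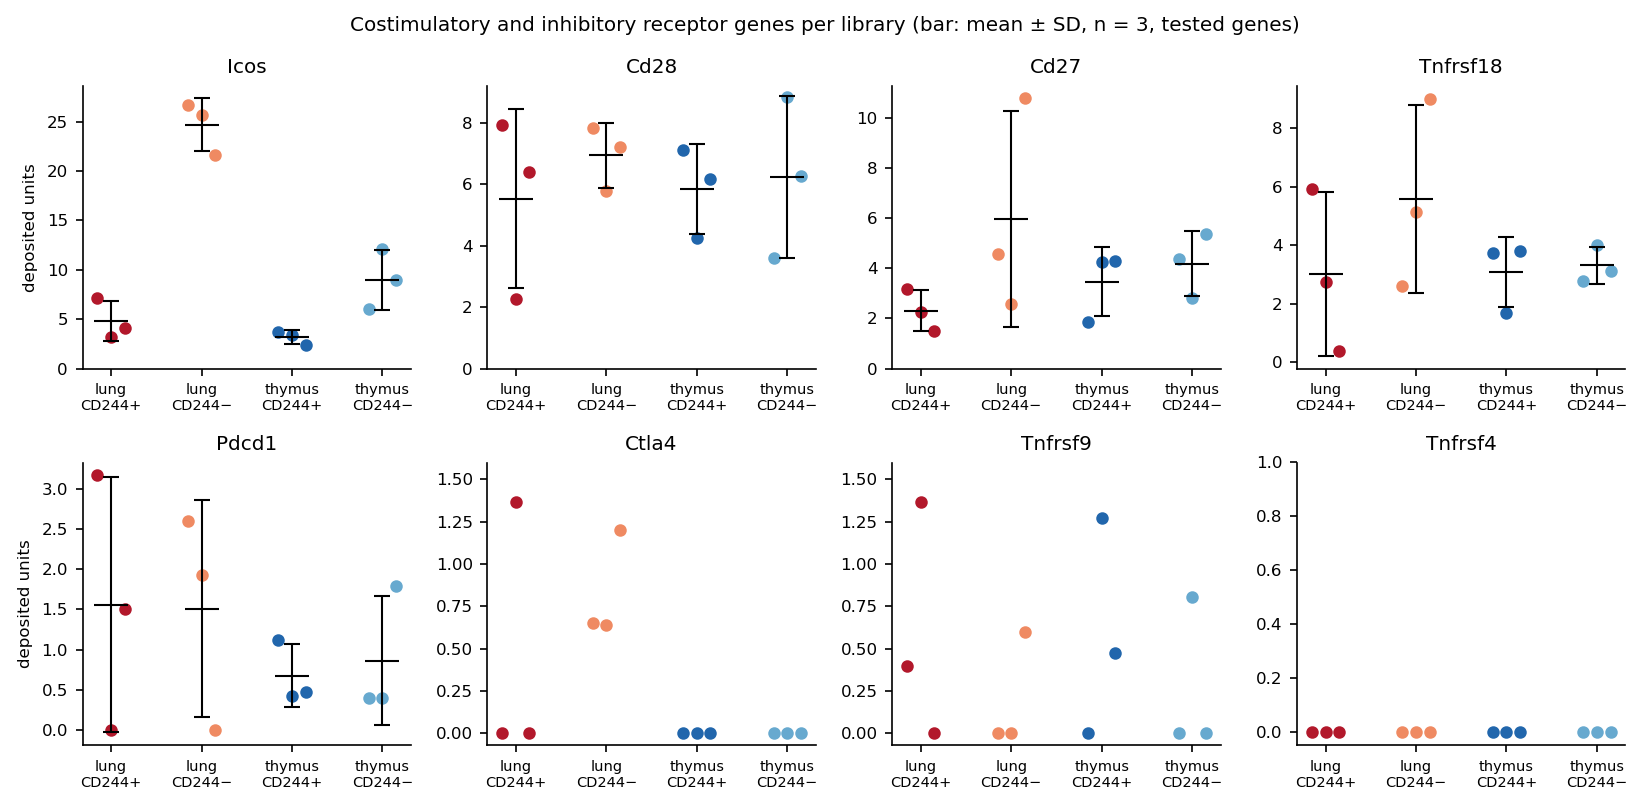
Deposited units (y axis, linear, scaled per panel) of each of the 8 receptor genes in the 12 libraries, by group; points are libraries, and bars give mean ± SD (n = 3) for the 5 genes that were tested. Icos in lung CD244-negative libraries, between 21.6 and 26.7 units, stands above all other libraries, which reach 12.1 units, while no such gap is seen for Cd28, Cd27, Tnfrsf18 or Pdcd1, and Tnfrsf4 is at 0 throughout.

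Between organs, the Icos level differed in CD244-negative cells. The lung CD244-negative mean of 24.7 units stood against 9.0 units in thymus CD244-negative cells, with no overlap between the libraries given above (as for 25.4% of all tested genes). Icos rose in lung by a log2 fold change of 1.40 ± 0.28 (SE, interval 0.84 to 1.96, limma adjusted p = 0.000115), again 1 of 5 tested receptors, against 10.7% of all tested genes, or 2.18% in the higher direction. Relative to the median of all tested genes, which was -0.29 in this comparison, the difference was 1.69. It was called in all 25 other settings, from 1.10 to 2.15, and the ratio of shares of all molecules was 3.8 (95% interval 2.78 to 5.23).

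In CD244-positive cells the organs were not separated by the test. Lung CD244-positive libraries had 7.13, 3.18 and 4.14 units against 3.75, 3.39 and 2.37 in thymus CD244-positive libraries, which overlap, and the log2 fold change of 0.44 ± 0.28 (SE, interval -0.12 to 1.0) had a limma adjusted p of 0.336. None of the 5 tested receptors was called (0 of 5, where 14.9% of all tested genes were called). The median of all tested genes was -0.27 in this comparison, 0.28 below its value with 1 common total, and Icos lay 0.71 above it. At an unadjusted p under 0.05 the count was 0 as well, against 26% of all tested genes, and edgeR called 1, Icos, against 25.9% of its 1154 genes. As shares of all molecules the same libraries did not overlap (3.68, 1.65 and 2.14 per 10000 in lung, 1.39, 1.26 and 0.88 in thymus), which held for 25.9% of all tested genes. The 2 settings that called it were edgeR (log2 fold change 1.51, adjusted p = 0.00854) and scaling to T cell receptor complex genes (1.54, limma adjusted p = 0.000189), which called 20.9% of all genes it tested. With 1 common total for all libraries it was 0.81 (limma adjusted p = 0.0514).

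Whether the effect of CD244 status on Icos differed between the organs was tested directly. The difference of the log2 fold changes, lung minus thymus, was -0.96 ± 0.40 (SE, interval -1.76 to -0.17, unadjusted p = 0.0178, limma adjusted p = 0.245), and 0 of 5 tested receptors passed, against 3.27% of all tested genes. At an unadjusted p under 0.05 there was 1, Icos, against 12.5% of all tested genes, and edgeR called 0 receptors, against 1.82% of its genes. A pseudocount of 5 gave -0.85 (limma adjusted p = 0.0401), the only setting of the 24 run that called it.

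By mean units the order of the groups for Icos was lung CD244-negative, thymus CD244-negative, lung CD244-positive, thymus CD244-positive. In these units only the first step in that order, from lung CD244-negative to thymus CD244-negative, was free of overlap between libraries. As shares of all molecules, lung CD244-positive libraries also lay apart from thymus CD244-positive ones, as given above. Per 100 T cell receptor complex molecules the means were 19.1 ± 2.75 in lung CD244-positive, 54.0 ± 2.58 in lung CD244-negative, 5.25 ± 0.976 in CD244-positive thymus and 12.6 ± 4.60 in CD244-negative thymus libraries (SD, n = 3 each), so lung CD244-positive cells ranked above thymus CD244-negative cells on that scale, with ranges of 15.9 to 20.9 and 7.94 to 17.1 that overlapped.

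**Figure D2:**
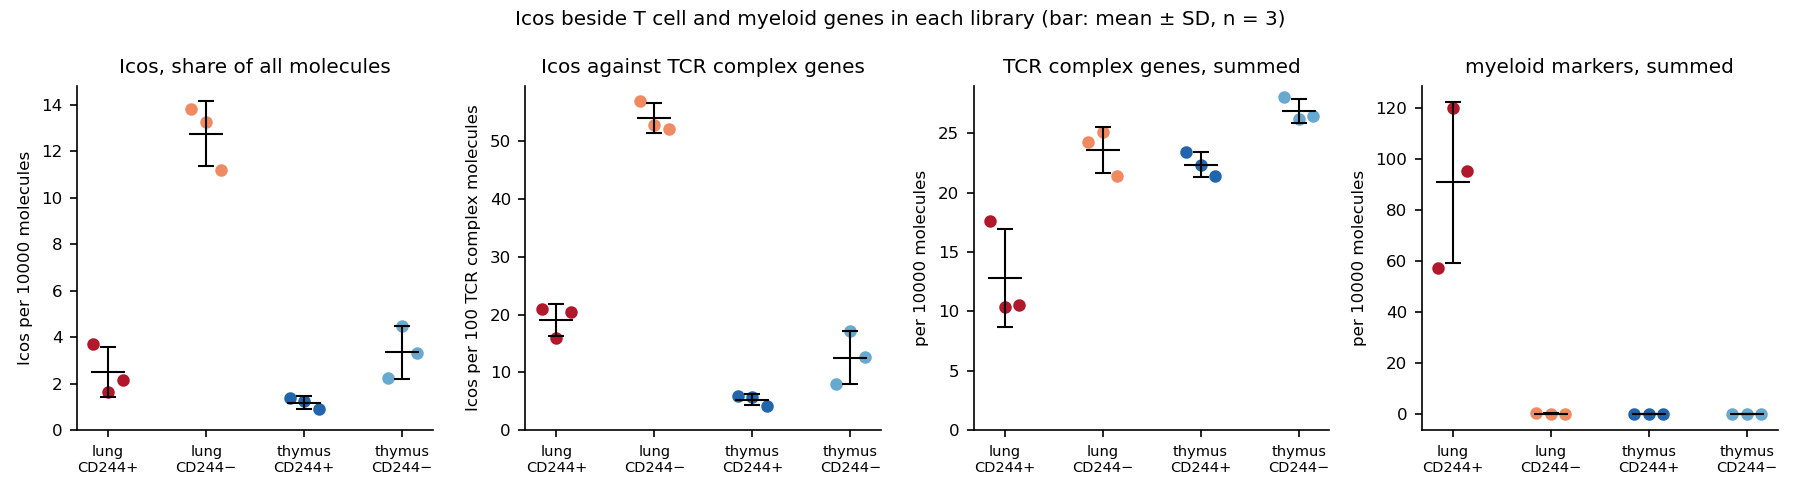
Icos per 10000 molecules, Icos per 100 molecules of T cell receptor (TCR) complex genes, the summed TCR complex genes and the summed myeloid markers (y axes, linear) in each library by group; points are libraries and bars mean ± SD (n = 3). Lung CD244-positive libraries hold the least TCR complex RNA, 10.3 to 17.6 per 10000, and nearly all of the myeloid RNA, and per 100 TCR complex molecules Icos is at 15.9 to 20.9 there and at 52.2 to 56.9 in lung CD244-negative libraries.

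Cd28, which encodes the classical costimulatory receptor for CD80 and CD86, had 162 molecules, and its groups overlapped in every comparison. Lung CD244-positive libraries held 20, 5 and 17 molecules (7.92, 2.27 and 6.39 units) and lung CD244-negative libraries 12, 9 and 12 (7.82, 5.77 and 7.21 units). In thymus there were 19, 10 and 13 molecules in CD244-positive (7.12, 4.24 and 6.17 units) and 9, 22 and 14 in CD244-negative libraries (3.59, 8.85 and 6.26 units). Log2 fold changes of CD244-positive minus CD244-negative cells were -0.39 ± 0.32 (SE, interval -1.03 to 0.24) in lung and -0.03 ± 0.32 (interval -0.67 to 0.60) in thymus, with limma adjusted p of 0.555 and 1.0. Lung minus thymus gave -0.17 ± 0.32 (interval -0.80 to 0.47) in CD244-positive and 0.19 ± 0.32 (interval -0.44 to 0.82) in CD244-negative cells (limma adjusted p = 0.783 and 0.770). Scaling to T cell receptor complex genes turned the lung minus thymus value in CD244-positive cells to 0.96 (limma adjusted p = 0.0486).

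The inhibitory members were scarce. Pdcd1, the gene of PD-1, had 8, 0 and 4 molecules in lung CD244-positive and 4, 3 and 0 in lung CD244-negative libraries, and 3, 1 and 1 in CD244-positive thymus libraries against 1, 1 and 4 in CD244-negative thymus libraries. A library with 0 molecules occurred in each lung group, so the groups overlapped. It passed the filter for testing, and its log2 fold changes of CD244-positive minus CD244-negative cells were -0.01 ± 0.43 in lung (SE, interval -0.86 to 0.85) and -0.10 ± 0.43 in thymus (interval -0.95 to 0.76), with limma adjusted p of 0.998 and 1.0. Lung minus thymus was 0.41 ± 0.43 in CD244-positive (interval -0.45 to 1.26) and 0.32 ± 0.43 in CD244-negative cells (interval -0.54 to 1.17), with limma adjusted p of 0.595 and 0.711.

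Ctla4, whose product competes with CD28 for the same ligands, was seen only in lung libraries, at counts too low to test. It had 0, 3 and 0 molecules in lung CD244-positive and 1, 1 and 2 in lung CD244-negative libraries, and 0 in all 6 thymus libraries. With the 0 in thymus set to a floor of 3 molecules, the 7 lung molecules gave a ratio of shares of 3.84. The exact interval for 7 against 0 started at 2.37 (counting error only). In CD244-negative cells alone, 4 lung molecules against 0 in thymus gave 2.82 with the same floor, and the exact interval started at 1.39. The lung and thymus CD244-negative libraries did not overlap (a pattern found in 25.4% of all tested genes). A count of 0 in the thymus libraries allows up to 0.0777 molecules per 10000.

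Of the tumour necrosis factor receptor family, Cd27 and Tnfrsf18 were present in every library. Cd27, whose product binds CD70 and supports T cell survival, had 8, 5 and 4 molecules in lung CD244-positive libraries (3.17, 2.27 and 1.5 units) and 7, 4 and 18 in lung CD244-negative libraries (4.56, 2.57 and 10.8 units). Thymus CD244-positive libraries had 5, 10 and 9 (1.87, 4.24 and 4.27 units) and thymus CD244-negative libraries 11, 7 and 12 (4.38, 2.82 and 5.37 units). Library 3 of lung CD244-negative cells was the highest of the 12, and the groups overlapped in every comparison. The lung log2 fold change of CD244-positive minus CD244-negative cells was -0.93 ± 0.36 (SE, interval -1.64 to -0.21, limma adjusted p = 0.103), and it passed only without lung CD244-negative library 2 (-1.32, limma adjusted p = 0.0220). In thymus the same difference was -0.24 ± 0.36 (interval -0.96 to 0.48, limma adjusted p = 1.0). Lung minus thymus was -0.41 ± 0.36 in CD244-positive and 0.28 ± 0.36 in CD244-negative cells (limma adjusted p = 0.514 and 0.691).

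Tnfrsf18, the gene of GITR, had 15, 6 and 1 molecules in lung CD244-positive libraries (5.94, 2.73 and 0.376 units) and 4, 8 and 15 in lung CD244-negative libraries (2.61, 5.13 and 9.01 units). Thymus CD244-positive libraries had 10, 4 and 8 (3.75, 1.70 and 3.8 units) and thymus CD244-negative libraries 7, 10 and 7 (2.79, 4.02 and 3.13 units), and all comparisons overlapped. The lung log2 fold change of CD244-positive minus CD244-negative cells was -0.88 ± 0.39 (SE, interval -1.64 to -0.11, limma adjusted p = 0.170). It passed without lung CD244-positive library 1 (-1.42, limma adjusted p = 0.0140) and turned to 0.20 with that library as the only one of its group. In thymus the value was -0.12 ± 0.39 (interval -0.88 to 0.65, limma adjusted p = 1.0). Lung minus thymus was -0.26 ± 0.39 in CD244-positive and 0.50 ± 0.39 in CD244-negative cells (limma adjusted p = 0.712 and 0.451).

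Tnfrsf9 and Tnfrsf4, receptors that appear on T cells after activation, were at or near the limit of detection. Tnfrsf9 (4-1BB) had 11 molecules over the 12 libraries, with 1, 3 and 0 in lung CD244-positive, 0, 0 and 1 in lung CD244-negative libraries, and 0, 3 and 1 in CD244-positive thymus libraries against 0, 2 and 0 in CD244-negative thymus libraries. No difference was detectable at this depth. Tnfrsf4 (OX40) had 0 molecules in all 12 libraries, which allows up to 0.0483 molecules per 10000 over the 12. With Ctla4, these were the 3 of 8 members that did not exceed 1 unit in at least 3 libraries and were not tested.

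**Figure D3:**
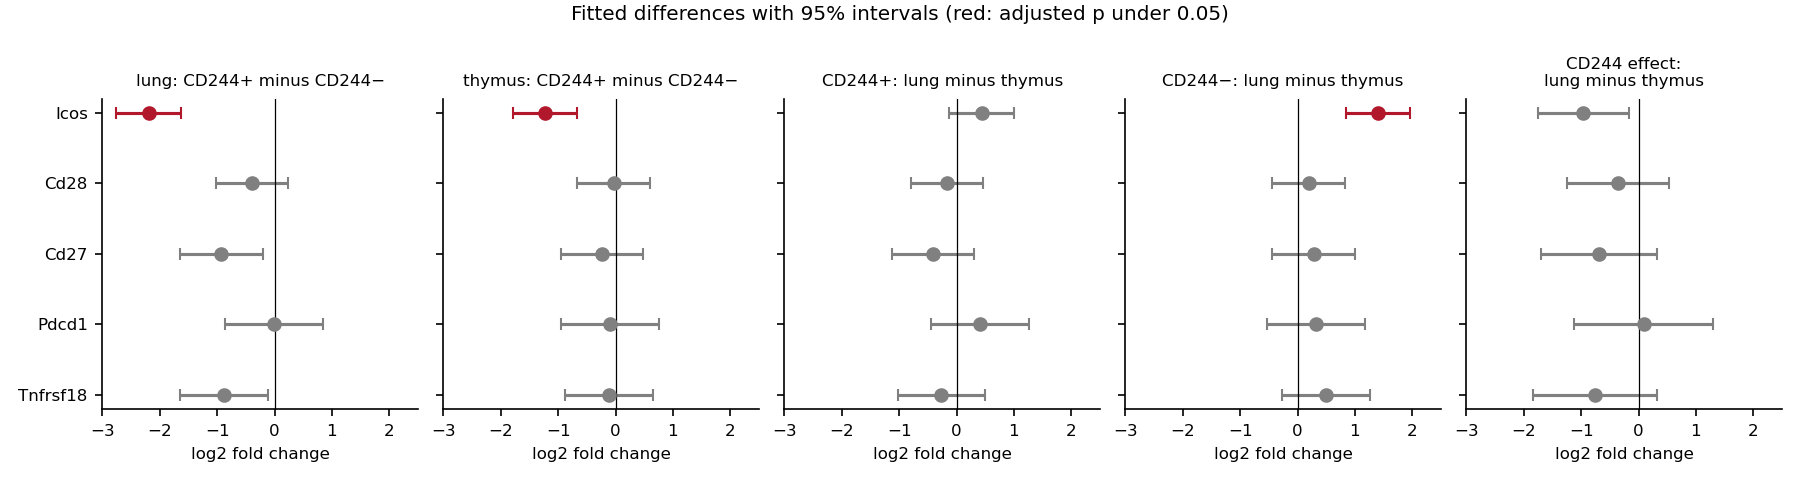
Log2 fold changes on the log2(value + 1) scale (x axis) with 95% intervals for the 5 tested receptors in each comparison; the fifth panel is the CD244 effect in lung minus that in thymus, and red marks a limma adjusted p under 0.05. Icos alone is red, in the lung, thymus and CD244-negative panels, and the interval of Icos in the fifth panel (-1.76 to -0.17) excludes 0 although its adjusted p is 0.245.

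Set side by side, the tested members were called once in lung (Icos, lower), once in thymus (Icos, lower), once between organs in CD244-negative cells (Icos, higher) and not in CD244-positive cells or in the difference of effects. Their median log2 fold change of CD244-positive minus CD244-negative cells was -0.88 in lung and -0.12 in thymus, beside -0.01 and -0.02 over all tested genes. T cell receptor complex genes also summed lower in lung CD244-positive libraries, at a mean of 12.8 per 10000 against 23.6 in lung CD244-negative ones. In thymus these means were 22.4 and 26.9. The part of that difference in the receptor medians was not tested. Lung minus thymus had a median of -0.17 in CD244-positive and 0.32 in CD244-negative cells, beside -0.27 and -0.29 over all tested genes. The comparisons that share a group of libraries are not independent of each other.

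The Icos part of the receptor RNA was smaller in the CD244-positive libraries of both organs. Summed over the 8 genes, lung CD244-positive libraries had 14.3, 6.82 and 7.19 molecules per 10000 and lung CD244-negative libraries 23.2, 21.6 and 26.1. Thymus CD244-positive libraries had 6.55, 5.67 and 6.54 and thymus CD244-negative libraries 6.37, 10.8 and 9.48. Icos made up 25.7%, 24.1% and 29.7% of that sum in lung CD244-positive and 59.4%, 61.5% and 42.9% in lung CD244-negative libraries. It made up 21.3%, 22.2% and 13.5% in thymus CD244-positive and 34.9%, 41.7% and 35.1% in thymus CD244-negative libraries. In both organs each CD244-positive library had a lower Icos share than each CD244-negative library. These shares draw on the Icos counts given above and are not a separate result, and no like share was computed over all genes. The other 7 genes together averaged 6.96 ± 3.19 per 10000 in lung CD244-positive and 10.9 ± 3.54 in lung CD244-negative cells, and 5.07 ± 0.623 in CD244-positive thymus libraries against 5.53 ± 1.20 in CD244-negative thymus libraries (SD, n = 3 each).

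**Figure D4:**
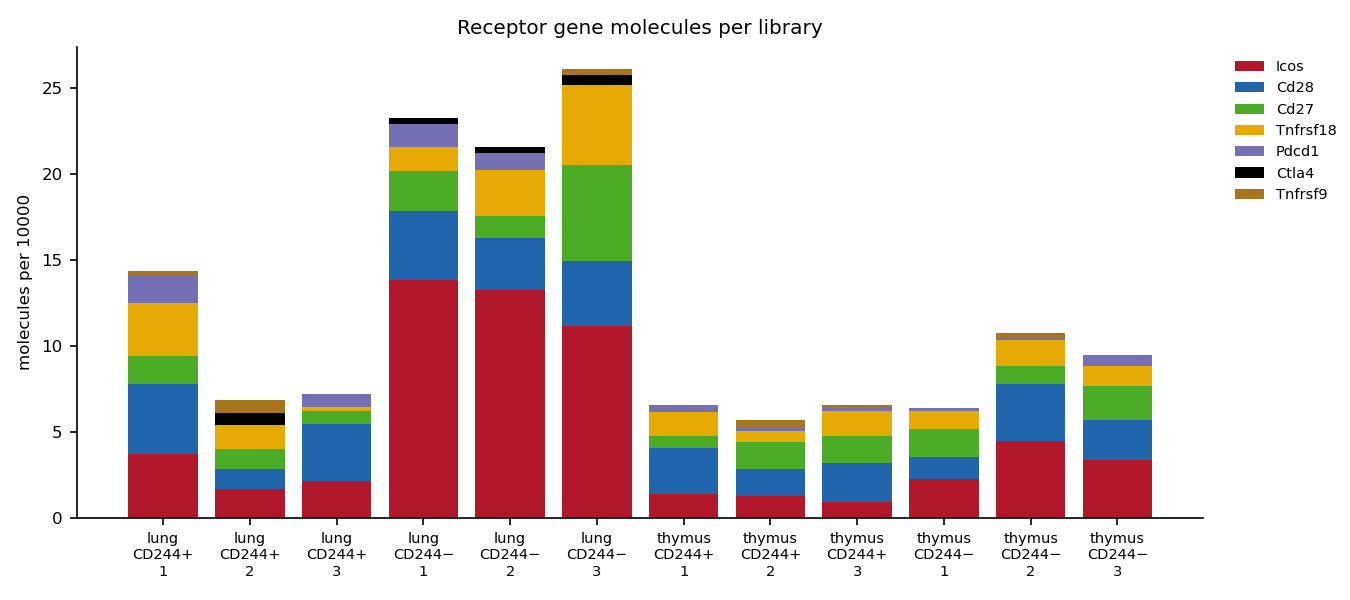
Molecules per 10000 (y axis, linear) of 7 receptor genes stacked for each library; Tnfrsf4, at 0 in all 12, has no bar. The Icos segment is the largest in the 3 lung CD244-negative libraries, at 42.9% to 61.5% of the receptor sum, against 24.1% to 29.7% in lung CD244-positive libraries.

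The ligands of these receptors were nearly absent from the sorted cells. Cd80, Cd70, Tnfsf4 and Tnfsf18 had 0 molecules in all 12 libraries. Icosl, which encodes the ICOS ligand, had 1 molecule in lung CD244-positive, 0 in lung CD244-negative, 2 in CD244-positive thymus libraries against 2 in CD244-negative thymus libraries. Cd274, the gene of PD-L1, had 7, 4, 2 and 3 molecules in the same order of groups, and Pdcd1lg2, the gene of PD-L2, had 2, 4, 5 and 2. Cd86, a CD28 and CTLA-4 ligand of antigen-presenting cells, was the exception with 5, 6 and 8 molecules in lung CD244-positive and 0 in lung CD244-negative libraries. The ratio of Cd86 shares in lung was 4.08 with the 0 set to 3 molecules per group, and its exact 95% interval started at 3.01 (counting error only). Cd86 lay beside the myeloid transcripts of the same libraries, and the part of those transcripts in it was not tested. Against thymus CD244-positive cells, with 1 Cd86 molecule in 3 libraries, the ratio of shares was 25.5 (95% interval 4.06 to 1060). Only the lung CD244-positive libraries exceeded 1 unit of Cd86, so it entered the test through the group where it was high, and no p is given.

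Over 7 lists of ligands, other coreceptors, signal relays, regulators and ICOS-linked effectors, 90 genes were listed and 54 tested. In lung 7 of the 54 passed (3 higher and 4 lower in CD244-positive cells, 13% against 8.43% of all tested genes, of which 5.61% were higher and 2.82% lower; Cd86 is 1 of the 3) and in thymus 0 of 54, against 0.409%, with 0.331% of all tested genes higher and 0.0779% lower there. Between organs, 9 passed in CD244-positive cells (2 higher and 7 lower in lung, 16.7% against 14.9%, with 5.27% higher and 9.61% lower; both higher genes entered the test through lung CD244-positive libraries) and 3 in CD244-negative cells (2 higher and 1 lower, 5.56% against 10.7%, with 2.18% higher and 8.52% lower). Of the 14 tested genes that relay signals of the tumour necrosis factor receptor family (Traf, Birc and NF-kappaB genes) and the 3 tested of 11 other receptors of that family, 0 passed in each of these 4 comparisons.

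Pik3r1, the gene of a regulatory subunit of the kinase that docks at the motif printed above, relays the CD28 and ICOS signal. In lung it was lower in CD244-positive than in CD244-negative cells. It had 7.65 ± 1.80 units in lung CD244-positive cells, against 15.1 ± 1.79 in lung CD244-negative cells (-0.91 ± 0.28 SE on the log2 scale, limma adjusted p = 0.0250). It was higher in lung CD244-negative than in thymus CD244-negative cells, where it had 7.46 ± 4.47 units (1.07 ± 0.28, limma adjusted p = 0.00469). Thymus CD244-positive cells had 8.67 ± 2.44 units, with no call against lung CD244-positive cells (lung minus thymus -0.15 ± 0.28, limma adjusted p = 0.776). Pik3r1 in lung missed the threshold without lung CD244-positive library 3 (limma adjusted p = 0.176), lung CD244-negative library 2 (0.0919) or lung CD244-negative library 3 (0.0865), with edgeR (-0.87, adjusted p = 0.0529), with lung CD244-positive library 1 alone (-0.67, limma adjusted p = 0.593) and with scaling to T cell receptor complex genes (-0.07). Between organs Pik3r1 missed it without thymus CD244-negative library 3 (0.63, limma adjusted p = 0.181).

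Ptpn6, which encodes the phosphatase SHP-1, went the other way. It had 7, 9 and 9 molecules in lung CD244-positive and 1, 0 and 0 in lung CD244-negative libraries, a ratio of shares of 16.1 (95% interval 2.64 to 661; log2 fold change 1.89 ± 0.35 SE, limma adjusted p = 2.38e-05). In thymus it had 25, 26 and 8 molecules in CD244-positive and 26, 26 and 19 in CD244-negative libraries, with no call. Lung CD244-negative cells, with 1 molecule, were below thymus CD244-negative cells, with 71 (log2 fold change -3.18 ± 0.35 SE, limma adjusted p = 4.33e-12). Ptpn6 is expressed by myeloid cells too, and the part of the myeloid transcripts in the lung value was not tested. The lung CD244-positive call was not past the threshold with library 1 as the only one of its group (1.67, limma adjusted p = 0.0642).

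Other called genes of the lists in lung included Cd6, a coreceptor gene of T cells, Gata3, a transcription factor gene of type 2 cytokine programmes, and Adam17, the gene of a protease that sheds surface receptors. Cd6 had 0.937 ± 0.555 units in lung CD244-positive and 6.93 ± 1.91 in lung CD244-negative cells (-2.05 ± 0.35 SE on the log2 scale, limma adjusted p = 6.79e-06), a call kept in all 25 other settings. Gata3 had 2.24 ± 1.33 units in CD244-positive and 9.13 ± 3.57 in CD244-negative lung cells (-1.67 ± 0.30, limma adjusted p = 1.41e-05), and missed the threshold with lung CD244-positive library 1 alone (-1.09, limma adjusted p = 0.163). Adam17 had 18 molecules in lung CD244-positive and 2 in lung CD244-negative cells (1.30 ± 0.39, limma adjusted p = 0.0207). The Adam17 call was lost without lung CD244-positive library 1, 2 or 3 (limma adjusted p = 0.0945, 0.102 and 0.0506) or lung CD244-negative library 3 (0.116), with libraries thinned to 1 depth (1.47, limma adjusted p = 0.0642) and with lung CD244-positive library 1 alone (1.44, limma adjusted p = 0.328).

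Between organs in CD244-positive cells, Zc3h12a, the gene of an RNase that degrades Icos mRNA, had 3, 3 and 7 molecules in lung and 0, 1 and 0 in thymus libraries. It too passed the filter through the lung CD244-positive libraries, with 1 other library above 1 unit, so its values are a description. Lower in lung were Gata3 (-1.72 ± 0.30, limma adjusted p = 3.24e-06), Pik3cd (-1.17 ± 0.35, 0.0103), Ppp2r1a (-1.22 ± 0.38, 0.0179), Lck (-0.89 ± 0.28, 0.0204), Cd160 (-1.19 ± 0.40, 0.0299), Cd6 (-1.05 ± 0.35, 0.0311) and Prkcq (-1.10 ± 0.39, 0.0435). Gata3 was called in 23 of 25 other settings and missed the threshold with scaling to T cell receptor complex genes (-0.74, limma adjusted p = 0.113) and with edgeR (-1.13, adjusted p = 0.0505). With 1 common total for both organs the other 6 did not pass, with limma adjusted p of 0.141 for Pik3cd, 0.136 for Ppp2r1a, 0.355 for Lck, 0.175 for Cd160, 0.196 for Cd6 and 0.238 for Prkcq. Over all settings Pik3cd was called in 17 of 25, Lck in 16 of 25, Cd160 in 13 of 23, Cd6 in 13 of 25, Ppp2r1a in 14 of 23 and Prkcq in 10 of 23, and Lck turned to 0.24 with scaling to T cell receptor complex genes. Leaving out 1 thymus or lung CD244-positive library also ended each of those 6 calls. For Pik3cd these were thymus library 3 (limma adjusted p = 0.0846) and lung library 3 (0.102), and for Lck thymus library 2 (0.0606), thymus library 3 (0.0765) and lung library 2 (0.316). For Cd160 they were thymus library 1 (0.142), thymus library 2 (0.118), lung library 2 (0.161) and lung library 3 (0.0535). For Cd6 they were thymus library 1 (0.0591), thymus library 2 (0.152), lung library 1 (0.182) and lung library 2 (0.0719). For Ppp2r1a they were thymus library 1 (0.0638), thymus library 3 (0.142), lung library 1 (0.0613) and lung library 2 (0.0510). For Prkcq they were thymus library 1 (0.198), thymus library 2 (0.0883), lung library 1 (0.117), lung library 2 (0.0501) and lung library 3 (0.131), and also thymus CD244-negative library 1 (0.0514). The lung CD244-positive libraries held less T cell receptor complex RNA, and Lck is itself one of those genes; the part of that difference in the lower values was not tested.

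The genes whose profile over the 12 libraries came closest to that of Icos were named by the smallest root mean square difference of log2(value + 1), each gene centred on its own mean, among 5133 tested genes. They were Hist1h1c, a linker histone gene (0.464), Sh2d2a, the gene of a T cell adaptor (0.538), the small nucleolar RNA gene Snord118 (0.549), Satb1, a chromatin organiser of T cells (0.593), and the integrin gene Itgb3 (0.600). For scale, Icos itself varied about its mean by 1.04. The other receptors lay farther from Icos, at 0.929 for Cd28, 0.946 for Tnfrsf18, 0.966 for Cd27 and 1.05 for Pdcd1. Sh2d2a had 5.13 ± 1.04 units in lung CD244-positive, 12.4 ± 1.38 in lung CD244-negative, 3.75 ± 0.401 in CD244-positive thymus libraries against 4.97 ± 1.68 in CD244-negative thymus libraries (SD, n = 3 each). Satb1 had 7.32 ± 0.576, 25.2 ± 1.18, 9.97 ± 3.02 and 16.1 ± 1.35 units in the same order. Both were highest in lung CD244-negative cells, as Icos was, which follows from choosing them by their likeness to Icos. Hist1h1c had a mean above 1 unit only in lung CD244-negative libraries (3.78 ± 1.28), and it entered the test through that group. The likeness is a description of these 12 libraries, which share their groups and their depth.

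**Figure D5:**
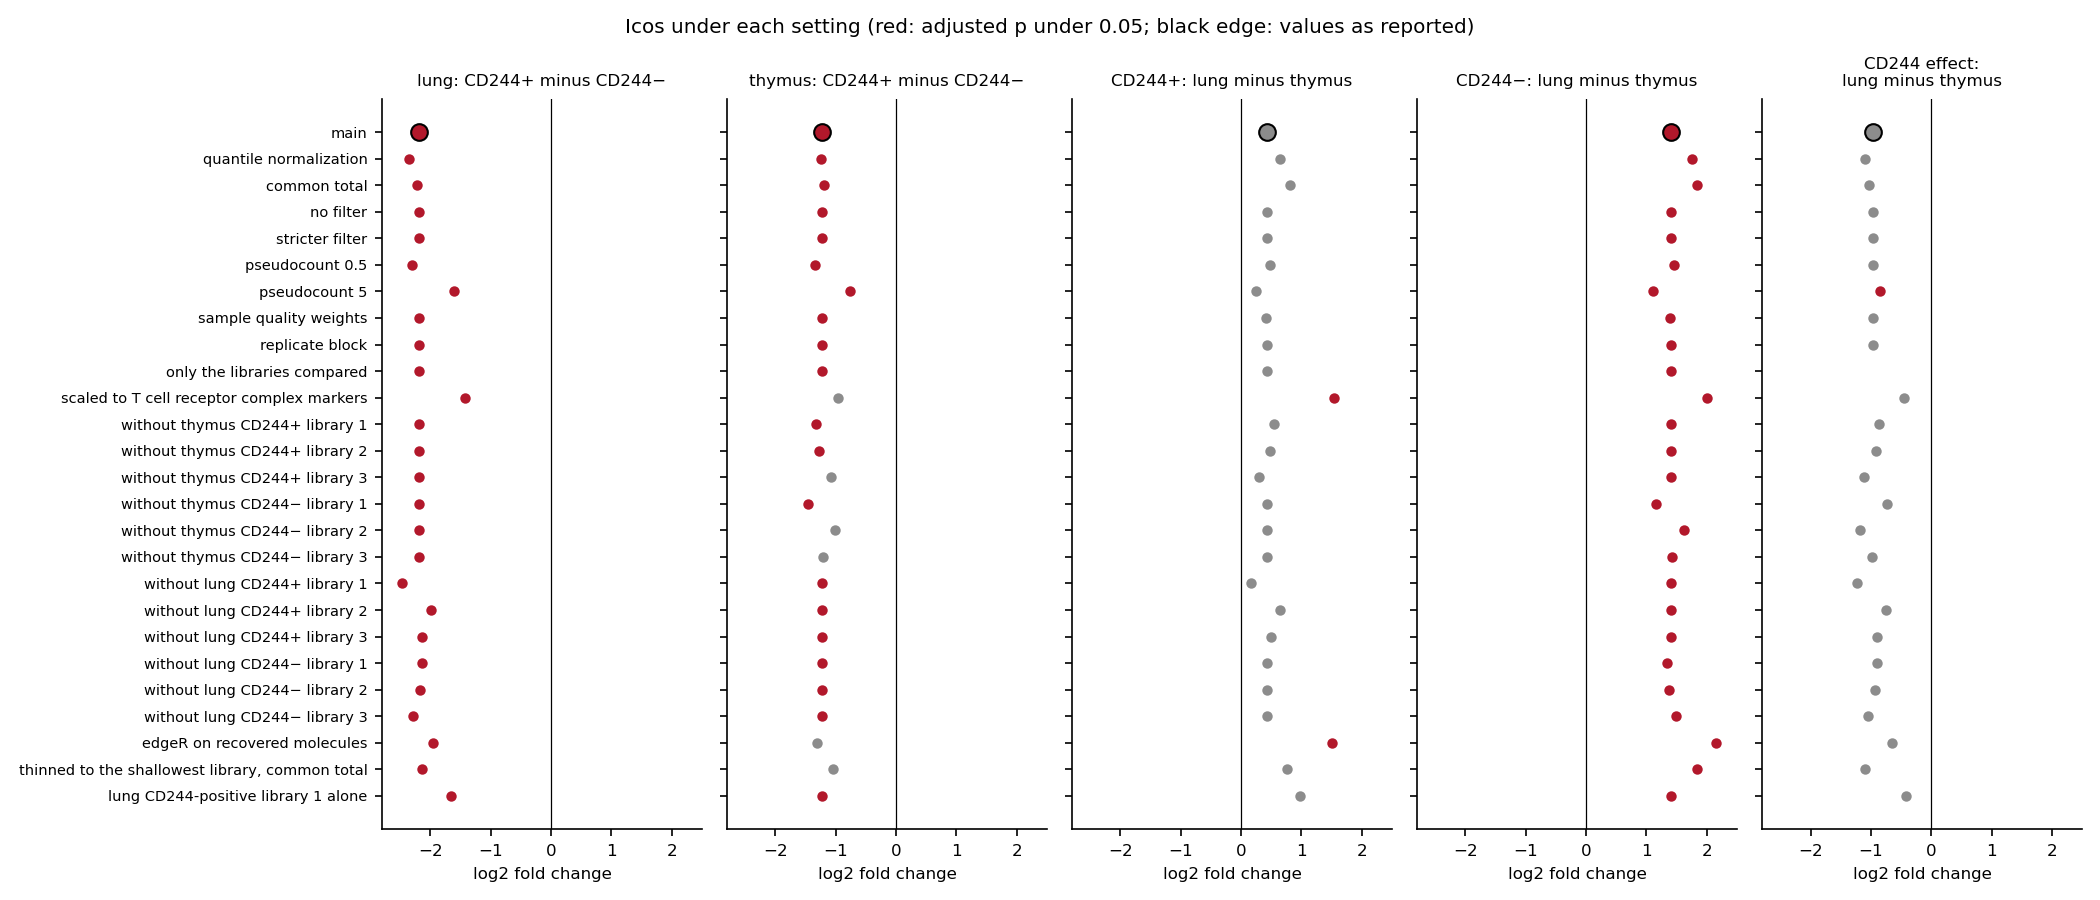
Log2 fold change of Icos (x axis) in the 5 comparisons as reported (top row) and under each other setting (rows below); red marks an adjusted p under 0.05 and grey one above it. The lung panel stays between -2.46 and -1.42 and the CD244-negative panel between 1.10 and 2.15, all red, while the thymus panel and the CD244-positive panel change colour between settings.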

How the data were processed

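RNA of 12 libraries was measured with molecular barcodes in the oligo-dT primer, template switching and PCR, with ERCC spike-in RNA added, per the labels' protocols. Per the submitters' processing notes STAR and mm10 were used; the role of each, how molecules were counted, the gene models and the scaling are not given in the sources used here. The authors deposited a normalized signal for each gene in each library, with 0 ERCC rows. Its columns sum to 1 total per tissue, and 94.3% to 95.9% of nonzero values were whole multiples (tolerance 1e-06) of the value of 1 molecule in that library. Dividing by that value gave 29696 to 71789 molecules per library. This precision covers counting error only, as do all intervals on molecules (exact 95%) and floors (3 molecules).

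Values were taken as log2(value + 1), and 5138 genes above 1 unit in at least 3 libraries were tested in 1 limma 3.58.1 model (trend, robust; R 4.3.3) with 4 groups, two-sided, with Benjamini-Hochberg adjustment over all tested genes and a threshold of 0.05. The spread that limma used for each tested receptor had 89.2 degrees of freedom, most of them borrowed from other genes. Over 3 and 3 libraries an exact test gives no p under 0.1. A call means an adjusted p under that threshold. The code was tested on simulated data. The members, lists and markers were chosen with earlier results of these data known. Named genes were the 8 members, up to 4 called genes per list and comparison with the smallest p, and the 5 genes closest to Icos. Some genes that the rule or the marker lists name are not reported here. Positions and coding sequences are from GENCODE M21.

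Alternatives were quantile normalization, 1 common total, no filter, a filter at 5 units, pseudocounts of 0.5 and 5, sample quality weights, a replicate block, only the libraries compared, scaling to T cell receptor complex genes, each library left out, and edgeR 4.0.16 (quasi-likelihood, TMM) on recovered molecules. edgeR used 9 libraries whose step of 1 molecule passed a separate check; thymus CD244-positive library 1, thymus CD244-negative library 2 and lung CD244-positive library 2 did not pass it, which left 2 libraries in each of those groups. All 12 libraries held some values below 1 molecule. Thinning to the shallowest library and lung CD244-positive library 1 alone were chosen after seeing the data.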

Additional observations from a re-analysis of the deposited data

Results flagged for a closer look

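For 3 of the 54 tested genes of the lists (5.56%) the CD244 effect (CD244-positive minus CD244-negative) differed between lung and thymus. That was in the test of the difference itself, which called 3.27% of all tested genes. Gata3 had a difference of log2 fold changes, lung minus thymus, of -1.47 ± 0.42 (SE, limma adjusted p = 0.0303), with effects of -1.67 in lung and -0.20 in thymus. Maf, the gene of a transcription factor of T helper cells, had a difference of 1.58 ± 0.43 (limma adjusted p = 0.0170), with 10.2 ± 5.64 units in lung CD244-positive and 6.12 ± 1.93 in lung CD244-negative cells, and 5.72 ± 2.76 in CD244-positive thymus libraries against 11.8 ± 2.90 in CD244-negative thymus libraries (SD, n = 3 each). Neither single effect of Maf was called (0.57 in lung and -1.01 in thymus, limma adjusted p = 0.293 and 0.195). Ptpn6 had a difference of 2.24 ± 0.49 (limma adjusted p = 0.00146), with effects of 1.89 in lung and -0.35 in thymus. Maf had 23, 36 and 14 molecules in lung CD244-positive libraries 1, 2 and 3, whose myeloid markers summed to 57.2, 120 and 95.3 per 10000. The part of those myeloid transcripts in the differences of Maf, Ptpn6 and Gata3 was not tested.

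The Gata3 difference was lost without thymus CD244-positive library 2 or 3 (limma adjusted p = 0.111 and 0.0534), thymus CD244-negative library 2 or 3 (0.0554 and 0.119), lung CD244-positive library 2 (0.229) and lung CD244-negative library 1 or 2 (0.142 and 0.0529). It was also lost with a pseudocount of 5 (-0.80, limma adjusted p = 0.0724), with scaling to T cell receptor complex genes (-1.09, 0.196), with edgeR (-1.35, adjusted p = 0.254) and with lung CD244-positive library 1 alone (-0.89, limma adjusted p = 0.767), and was called in 13 of 24 other settings. The Maf difference was lost without thymus CD244-positive library 2 (limma adjusted p = 0.176), thymus CD244-negative library 1 (0.102), lung CD244-positive library 2 (0.200) and lung CD244-negative library 3 (0.0611), with edgeR (1.71, adjusted p = 0.107) and with lung CD244-positive library 1 alone (1.55, limma adjusted p = 0.218), and was called in 18 of 24 other settings. The Ptpn6 difference kept its call whichever library was left out, and did not pass with lung CD244-positive library 1 alone (2.02, limma adjusted p = 0.146).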

How the results depend on the processing

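With a replicate block, the fits called 19 genes in thymus, 428 in lung, 750 and 525 between organs in CD244-positive and CD244-negative cells and 161 for the difference of effects; no receptor call changed (1 receptor in thymus and lung, 0 and 1 between organs, 0 for the difference). Same-numbered libraries deviated with r of -0.0284 to 0.0157, and differently numbered ones with r of -0.0389 to 0.0263. These values cannot decide whether libraries were paired, since counting error in genes with few molecules keeps r small. The labels name no animals, and the main fit did not take the numbers as pairs.

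In thymus 0 receptors were called, in place of 1, with scaling to T cell receptor (TCR) complex genes, edgeR or thinning, and 0 to 1 when 1 library was left out. In lung 1 to 2 were called with a library left out. Between organs in CD244-positive cells 2 were called with TCR scaling and 1 with edgeR, in place of 0. For the difference of effects a pseudocount of 5 called 1, in place of 0. The cause was not tested.

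The following log2 fold changes took the other sign, none of them called except Cd28 between organs with TCR scaling. In thymus Cd28 was 0.18 with TCR scaling, 0.095 with edgeR and 0.21 thinned, and Tnfrsf18 0.077 with TCR scaling. In lung Cd28 was 0.39 with TCR scaling, 0.21 with edgeR and 0.18 with CD244-positive library 1 alone. Pdcd1 in lung was 0.0041 with a pseudocount of 5, 0.038 with sample weights, 0.41 with TCR scaling and 0.93 with library 1 alone, where Tnfrsf18 was 0.20. Between organs in CD244-positive cells Cd28 was 0.046 with quantile normalization, 0.23 with 1 common total, 0.96 with TCR scaling, 1.04 with edgeR and 0.41 with library 1 alone. Tnfrsf18 was 0.059 with 1 common total, 0.61 with TCR scaling, 0.76 with edgeR, 0.53 thinned and 0.81 with library 1 alone, and with TCR scaling Cd27 was 0.58 and Lck 0.24. For the difference of effects Cd28 was 0.21 with TCR scaling, 0.11 with edgeR and 0.21 with library 1 alone, where Tnfrsf18 was 0.32.

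With 1 library left out, thymus values ranged from -0.33 to 0.22 for Cd28, -0.45 to 0.051 for Cd27, -0.28 to 0.23 for Pdcd1 and -0.26 to 0.16 for Tnfrsf18, and lung values from -0.68 to 0.042 for Cd28 and -0.57 to 0.56 for Pdcd1. Between organs they ranged from -0.45 to 0.27 for Cd28, -0.057 to 0.97 for Pdcd1 and -0.80 to 0.37 for Tnfrsf18 in CD244-positive cells, and from -0.10 to 0.45 for Cd28, -0.19 to 0.68 for Cd27 and -0.043 to 0.88 for Pdcd1 in CD244-negative cells. Differences of effects ranged from -0.65 to 0.077 for Cd28 and -0.47 to 0.66 for Pdcd1.

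Counts over all genes moved more. The 21 calls in thymus became 36 with only the libraries compared, 12 with edgeR, 11 with TCR scaling, 9 thinned and 10 to 22 with a library left out (CD244-negative library 1 gave 12 and library 2 gave 10; CD244-positive library 2 gave 13 and library 3 gave 11). The 433 in lung became 250 with the stricter filter, 1389 with TCR scaling, 180 with edgeR, 60 with library 1 alone and 179 to 423 with a library left out (CD244-positive library 2 gave 203 and library 3 gave 179). Between organs the 765 in CD244-positive cells became 453 with the stricter filter, 429 thinned, 299 with edgeR, 1171 with TCR scaling, 258 with library 1 alone and 473 to 799 with a library left out (lung library 2 gave 473 and library 3 gave 485). The 550 in CD244-negative cells became 311 with 1 common total, 295 with quantile normalization, 185 thinned, 219 with edgeR and 147 with TCR scaling. The 168 differences of effects became 104 with the stricter filter, 102 thinned, 21 with edgeR, 300 with TCR scaling, 16 with library 1 alone and 48 to 152 with a library left out (lung CD244-positive libraries 1, 2 and 3 gave 95, 51 and 48). The share of calls that were higher in lung was 35.4% in CD244-positive and 20.4% in CD244-negative cells, against 63.7% and 51.8% with 1 common total, 57.1% and 54.6% with quantile normalization and 96.9% and 74.8% with TCR scaling. With TCR scaling the share of higher calls was 97.9% in lung and 100% in thymus, in place of 66.5% and 81.0%, and 99.0% for the difference of effects, in place of 81.0%. Over all 12 libraries Pdcd1 had 30, Tnfrsf9 11 and Ctla4 7 molecules, and these counts limit what could be detected.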
